A study of Mus musculus with 13 samples.

Results

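MHC class I antigen presentation was followed through 10 genes that carry out its successive steps: the heavy chains H2-K1 and H2-D1, the light chain B2m, the peptide transporter genes Tap1 and Tap2, the loading factor Tapbp, the immunoproteasome subunits Psmb8, Psmb9 and Psmb10, and the transactivator Nlrc5. They were taken by symbol from the 37785 genes of the count tables, each symbol being matched to its Ensembl identifier, and all 10 were found and passed the filter on low counts, as did 21170 genes in all. The study isolated oligodendrocyte precursor cells (OPCs) from the brains of wild-type C57BL/6 mice, 3 to 4 mice a time point, by magnetic sorting with microbeads against PDGFRα, and sequenced their total RNA with a low-input stranded kit. The ages were embryonic day 16 (E16, 3 libraries), postnatal day 12 (P12, 3 libraries), P80 (3 libraries, aged 80 or 81 days) and P310 (4 libraries, listed as P306, P307, P308 and P308 in the age field). At P80 and P310 myelin debris was first taken out with myelin removal beads, a step not listed for E16 or P12, so between P12 and P80 age and bead use cannot be told apart. No group carried a transgene or treatment in the labels.

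Class I molecules display peptides of the cell's own proteins to CD8 T cells. Peptides are cut by the proteasome, whose constitutive catalytic subunits can be replaced by the immune subunits encoded by Psmb8, Psmb9 and Psmb10, are pumped into the endoplasmic reticulum by the Tap1 and Tap2 heterodimer, and are loaded with the help of tapasin, the product of Tapbp, onto a heavy chain bound to beta-2-microglobulin. Interferons and NF-kB induce these genes, and Nlrc5 acts at an upstream module shared by the promoters of some of them, such as the heavy chains and B2m. In the brain the class I genes are usually low in neural cells and higher in endothelial cells and microglia, and glial cells can raise them under interferon.

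The libraries held 8669521 to 25810455 counts, at which 3 counts were worth 0.116 to 0.346 CPM, the unit that divides a count by its library's total. These floors are before the scaling between libraries that the levels below carry. P12 libraries 2 and 3 were close to identical: their chi-square per degree of freedom was 2.34, where 1 is sampling noise alone, against 16.6 to 179 for the other 14 pairs of one age. They were counted as 1 sample, called P12 replicate 2-3, which left 12 samples (n = 3, 2, 3 and 4). Pdgfra, the target of the beads, lay at 33.0 ± 6.96 (SD) CPM at E16, 70.2 ± 33.2 at P12, 37.1 ± 18.4 at P80 and 30.7 ± 25.8 at P310. The sum of 16 endothelial markers was 56.8 to 87.6 CPM at E16 and 7319 to 13800 CPM in every later sample, where OPC markers summed to 181 to 727 CPM. The samples are therefore named here by their age rather than as one cell type. At E16 the sum of 15 immature neuron markers (7025 to 8219 CPM) exceeded that of OPC markers (818 to 994 CPM). Sums of 13 oligodendrocyte markers set P12 replicate 1 (8432 CPM) and P310 replicate 2 (67720 CPM) apart from the other later samples (342 to 922 CPM). In such mixed samples fewer cells of a type and less RNA per cell cannot be told apart.

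In the GRCm38 annotation 7 of the 10 lie on chromosome 17, in the order Tapbp (33915899 to 33929288), H2-K1 (33996017 to 34000333), Psmb9 (34181988 to 34187764), Tap1 (34187553 to 34197225), Psmb8 (34197721 to 34201454), Tap2 (34203527 to 34216321) and H2-D1 (35262730 to 35267499). Nlrc5 (94434356 to 94527272) and Psmb10 (105935735 to 105938444) lie on chromosome 8, and B2m (122147686 to 122153083) on chromosome 2. Reads that fit several places or genes were counted for each of them, without strand. Of the distinct 50-base stretches of its transcripts, H2-K1 shared 9.63% and H2-D1 12.8% with other genes, mostly of the H2-Q family and each other (141 stretches), so the counts of the 2 genes are not independent. B2m and Psmb10 shared none. Tapbp shared 20.2% of its exonic bases with the antisense gene Gm19412, Tap2 14.1% with Gm15821, and Psmb8 6.80% with Gm20496, and Psmb9 and Tap1 shared 212 bases on opposite strands.

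The promoters are shown because the 3 genes of the class I molecule itself all hold letters of the known upstream module. RefSeq (GRCm38.p6) gave the 250 bases before a start site for 8 of the 10 genes, all but Tap2 and Nlrc5. The stretches below run 5′ to 3′ on the strand of the gene, and capitals mark, from left to right in H2-K1, an NF-kB consensus match (2 overlapping matches in H2-K1 and H2-D1), an interferon regulatory factor core (AANNGAAA or its reverse complement), the X2 core TGACG and an inverted CCAAT box. For H2-K1 the stretch is chr17:34000354-34000463 (minus strand), for B2m it is chr2:122147545-122147643 (plus strand), and neither holds an exonic base of the annotation. H2-D1 is shown as its upstream pair of sites, chr17:35262923-35262951, and its downstream pair, chr17:35262993-35263022 (plus strand), which lie in an annotated H2-D1 exon upstream of the RefSeq start.
H2-K1: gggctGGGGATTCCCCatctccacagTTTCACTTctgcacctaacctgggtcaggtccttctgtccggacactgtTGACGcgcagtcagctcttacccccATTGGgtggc
B2m: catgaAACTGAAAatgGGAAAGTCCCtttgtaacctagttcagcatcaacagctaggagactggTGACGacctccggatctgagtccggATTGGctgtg
H2-D1 upstream pair: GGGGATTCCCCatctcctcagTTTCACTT
H2-D1 downstream pair: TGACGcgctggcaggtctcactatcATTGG
Between H2-K1 and the matching stretch of H2-D1, 99 bases were identical and 11 differed (90.0%), whereas H2-K1 and B2m shared 52.3% of aligned positions. In B2m the interferon core precedes the NF-kB match, the reverse of the order in both heavy chain genes.

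Searched on both strands, the interferon core was found in the window of H2-K1, H2-D1 and B2m (3 of 8) and of 23.9% of the 27025 genes searched. This core was chosen after the promoters were seen, so its count among the members is no support. The NF-kB consensus was found in the same 3 and 4.46% of genes. H2-K1 and H2-D1 were 90.0% identical over the stretch, so their matches are not independent of each other. TGACG was found in 5 of 8 (H2-K1, H2-D1, B2m, Psmb9 and Tap1) against 19.8% of genes, and CCAAT in 6 of 8 (the same 5 and Tapbp) against 37.5%. A gamma-activated site (TTCNNNGAA) was found for Psmb8 alone among the 8 and in 8.13% of genes. Psmb9 and Tap1 face away from each other with 225 bases between their RefSeq starts, so their single TGACG is the same site. With its flanks it is chr17:34187460-34187484, which lies in an annotated Psmb9 exon and is read here on the strand of Tap1.
Tap1 and Psmb9 shared site: cagagacaggTGACGacagagggtc
These matches describe letters in a window and no binding was measured.

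From E16 to P12 all 10 genes rose (16.7% of all genes tested were called higher and 10.5% lower in that comparison). In all 10 the P12 samples lay above every E16 sample, as in 30.9% of all genes, and the P310 samples likewise (24.9% of all genes). The log2 changes ran from 2.36 for Psmb10 to 5.45 for Tap2, with a median of 3.56, against a median of 0.0906 over all genes. From P12 to P80 4 of the 10 rose, the heavy chains, B2m and Nlrc5, where 0.406% of all genes were called higher and 1.02% lower. From P80 to P310 none passed the test. Calls are adjusted p-values under 0.05 by edgeR's quasi-likelihood F test with Benjamini-Hochberg adjustment over 21170 genes, and levels are CPM scaled by TMM unless said otherwise.

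**Figure D1:**
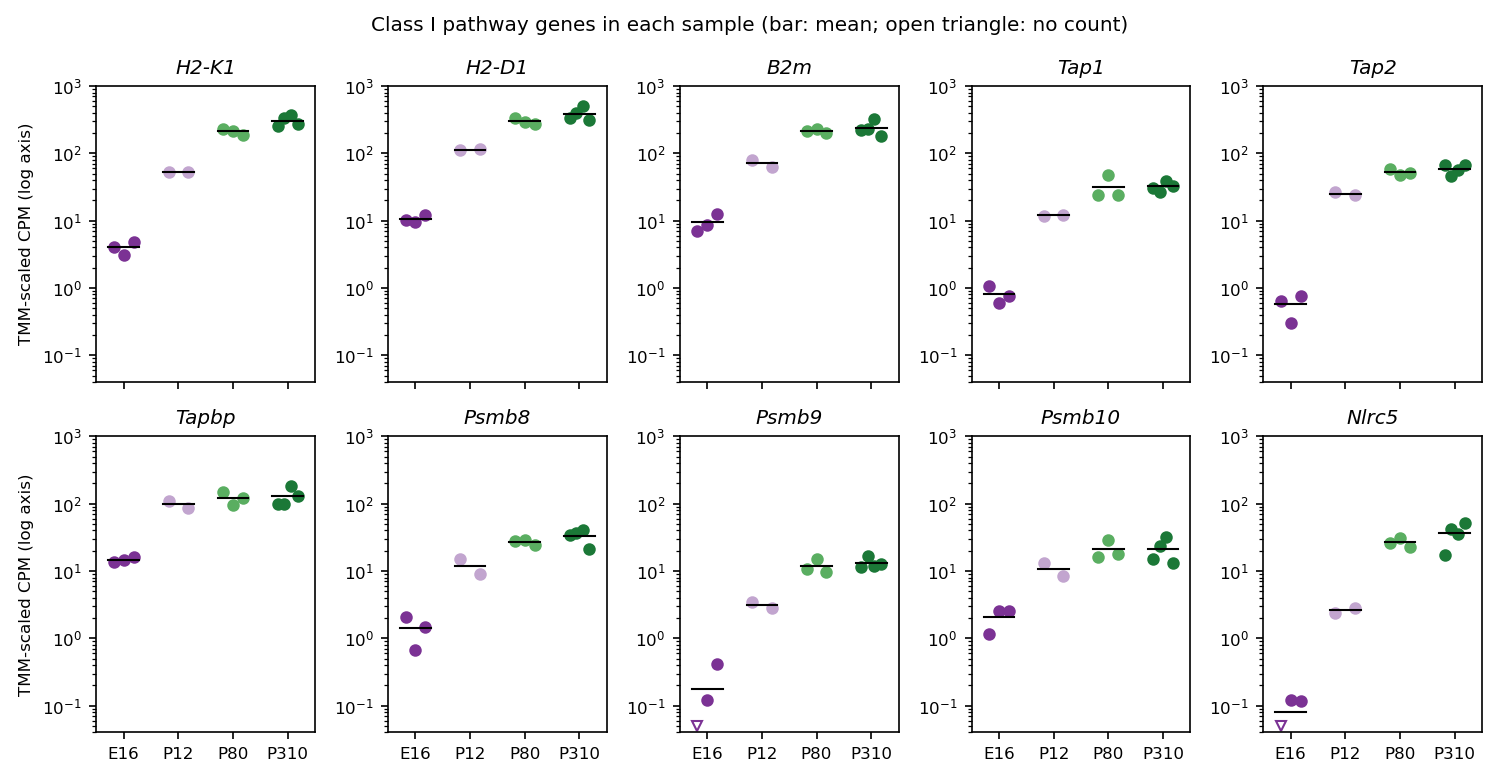
Level of each of the 10 genes in each of the 12 samples (CPM scaled by TMM, log axis) by age; each point is a sample, the bar is the mean, and an open triangle marks a sample with no count. All 10 genes lie lower in the 3 E16 samples than in any later sample, and P80 and P310 overlap for all but H2-K1 (2.27% of all genes were higher at P310 than at P80 with no overlap).

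The heavy chain gene H2-K1 stood at 4.10, 3.08 and 4.89 CPM in the 3 E16 samples, at 52.7 and 52.6 at P12, at 233, 218 and 187 at P80, and at 253, 330, 366 and 271 at P310. No group of ages overlapped with another, and each later age was the higher; between P80 and P310 that held for 2.27% of all genes. H2-K1 rose by a log2 change of 3.71 ± 0.25 (SE) at P12 (adjusted p = 5.67e-08) and of 2.01 ± 0.25 at P80 (adjusted p = 8.81e-04, the edgeR test). At P310 the value was 0.52 ± 0.20 higher still, with an unadjusted p of 0.0184 and an adjusted p of 0.871. It was the member with the smallest p from E16 to P310 (log2 6.24 ± 0.26, a 75.6-fold difference).

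H2-D1, which encodes the other classical heavy chain of this strain, was measured at 10.1, 9.65 and 12.2 CPM at E16, at 112 and 115 at P12, at 330, 295 and 273 at P80, and at 334, 391, 505 and 315 at P310. The P310 range overlapped that of P80, and the other ages did not overlap. H2-D1 rose by 3.41 ± 0.23 at P12 (adjusted p = 7.64e-08) and by 1.40 ± 0.24 at P80 (adjusted p = 0.00707, edgeR). H2-K1 and H2-D1 did not keep one proportion: the counts per length of H2-K1 were 0.317 to 0.405 times those of H2-D1 at E16, 0.455 to 0.466 times at P12, 0.676 to 0.731 times at P80 and 0.716 to 0.852 times at P310. Over the 9 later samples the log2 ratio was 0.85 higher than at E16 (exact two-sided permutation test, p = 0.00909, the smallest 3 against 9 samples can give; 0.0117 adjusted over 9 ratios). The 2 genes share stretches of sequence, as given above, and the part of shared reads in this ratio was not tested.

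B2m, the light chain common to class I molecules, gave 7.05, 8.75 and 12.6 CPM at E16, 80.5 and 63.3 at P12, 213, 233 and 198 at P80, and 224, 231, 326 and 182 at P310. P310 replicate 4 was below all P80 samples and replicate 3 above them. B2m rose by 2.92 ± 0.28 at P12 (adjusted p = 1.94e-06) and by 1.58 ± 0.29 at P80 (adjusted p = 0.0119, edgeR). Per exonic length it had the highest level of the 10 at every age, from 10.99 ± 3.28 (SD, n = 3) counts per kilobase of exon in CPM (RPKM) at E16 to 280 ± 71.2 (n = 4) at P310. H2-K1 rose more than B2m: their ratio per length went from 0.117 to 0.193 at E16 to 0.370 to 0.492 at P310, and the later samples lay 1.27 above E16 in log2 (exact permutation p = 0.00909, adjusted 0.0117). For H2-D1 against B2m the shift was 0.41 (exact permutation p = 0.0364, adjusted 0.0409), and it missed the threshold without E16 replicate 2 or 3, P12 replicate 2-3, P80 replicate 1 or any 1 of the P310 samples.

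Tap1 and Tap2 encode the partner chains of the peptide transporter, and their levels moved by different amounts. Tap2 was at 0.648, 0.302 and 0.767 CPM at E16, at 26.8 and 23.7 at P12, at 58.6, 48.3 and 50.3 at P80, and at 66.3, 45.9, 57.2 and 66.3 at P310. Only 27 counts in all lay behind the 3 E16 values. Its rise at P12, 5.45 ± 0.35 in log2 (adjusted p = 4.28e-08, edgeR), was the largest of the 10. The step to P80 was 1.05 ± 0.30 (adjusted p = 0.147), with no overlap between the 2 ages.

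Tap1 rose by 3.87 ± 0.40 at P12 (adjusted p = 4.34e-06, edgeR), from 0.603 to 1.08 CPM at E16 (38 counts in all) to 11.9 and 12.1 at P12. At P80 its 3 samples read 23.8, 47.3 and 23.7 CPM, replicate 2 standing above the others, and the difference from P12 was 1.39 ± 0.38 (adjusted p = 0.113). Per length Tap1 was 0.691 to 1.32 times Tap2 at E16, 0.306 and 0.353 times at P12, 0.281 to 0.676 times at P80 and 0.317 to 0.475 times at P310. The log2 ratio was 1.43 lower after E16 (log2 difference -1.43, exact permutation p = 0.00909, adjusted 0.0117). The antisense genes that overlap Tap2 take part in its counts, and their share was not tested.

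Tapbp, the tapasin gene, stood at 13.4, 14.6 and 16.3 CPM at E16 and was second to B2m per length. It rose to 108 and 87.5 at P12, a log2 change of 2.72 ± 0.29 (adjusted p = 4.95e-06, edgeR). After that it was the flattest: 95.2 to 147 CPM at P80, overlapping P12 (0.30 ± 0.29, adjusted p = 0.863), and 98.5 to 184 at P310. It was the only member whose P12 and P80 samples overlapped. Per length Tapbp exceeded Tap1 19.99 to 38.4 times at E16 and 5.38 to 7.76 times at P310, and the later samples differed from E16 by -1.96 in log2 (exact permutation p = 0.00909, adjusted 0.0117).

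The immunoproteasome subunits had 65 (Psmb8), 9 (Psmb9) and 101 (Psmb10) counts in all at E16. Psmb8 was at 2.09, 0.664 and 1.47 CPM there, at 14.9 and 9.14 at P12, at 27.8, 29.0 and 24.6 at P80, and at 34.1, 37.2, 40.7 and 21.1 at P310. Psmb9 was at 0, 0.121 and 0.413 CPM at E16, then at 3.42 and 2.84 at P12, at 10.8, 15.2 and 9.53 at P80, and at 11.5, 16.9, 11.8 and 12.7 at P310. Psmb10 ran from 1.15 to 2.54 CPM at E16, 8.33 and 13.2 at P12, 15.9 to 29.2 at P80 and 13 to 32.1 at P310. All 3 rose at P12, by 3.09 ± 0.44 (adjusted p = 8.97e-05), 4.02 ± 0.70 (adjusted p = 5.54e-04) and 2.36 ± 0.49 (adjusted p = 0.00212, edgeR) for Psmb8, Psmb9 and Psmb10. Their P12 and P80 samples did not overlap either, yet none passed the test for that step (adjusted p 0.312, 0.235 and 0.588).

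Each immune subunit takes the place of one constitutive catalytic subunit, Psmb8 that of Psmb5, Psmb9 that of Psmb6 and Psmb10 that of Psmb7. From E16 to P12 the immune genes rose, as given above, and the constitutive genes fell: Psmb5 changed by -1.31 ± 0.42 (adjusted p = 0.0312), Psmb6 by -1.31 ± 0.33 (adjusted p = 0.00879) and Psmb7 by -1.25 ± 0.38 (adjusted p = 0.0236, edgeR). These 3 calls rest on single samples: none of them was called without P12 replicate 2-3, and at most 1 without E16 replicate 3. Per length the Psmb8 level was 0.0282, 0.00725 and 0.0105 times that of Psmb5 in the E16 samples, 0.319 and 0.243 times at P12, 0.831, 1.26 and 0.835 times at P80, and 1.26, 1.90, 1.07 and 1.18 times at P310. Psmb8 thus exceeded Psmb5 in all 4 P310 samples and 1 of 3 P80 samples. Psmb10 exceeded Psmb7 1.59 to 3.97 times in all P80 and P310 samples, against 0.0594 to 0.108 times at E16. Psmb9 stayed below Psmb6 throughout, at most 0.00200 times at E16 and 0.184 to 0.244 times at P80 and P310. The 3 log2 ratios were higher after E16 by 6.02, 7.45 and 4.68 for Psmb8, Psmb9 and Psmb10 (exact permutation p = 0.00909 and adjusted 0.0117 for each). For Psmb9 against Tap1, with 225 bases between their RefSeq starts, the log2 ratio was 1.16 higher after E16 and did not pass the test (exact permutation p = 0.273). This value turned to -0.196 with 5 rather than 0.5 counts added. Psmb9 had no count in E16 replicate 1, where 3 counts would be 0.238 CPM before TMM scaling. The annotated exons of Psmb9 and Tap1 share 212 bases, and the part of shared reads in this ratio was not tested. Between P80 and P310 none of the 9 ratios passed: H2-K1 against B2m had the lowest exact permutation p, 0.0571, which is the smallest 4 against 3 samples can give (adjusted 0.386).

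**Figure D2:**
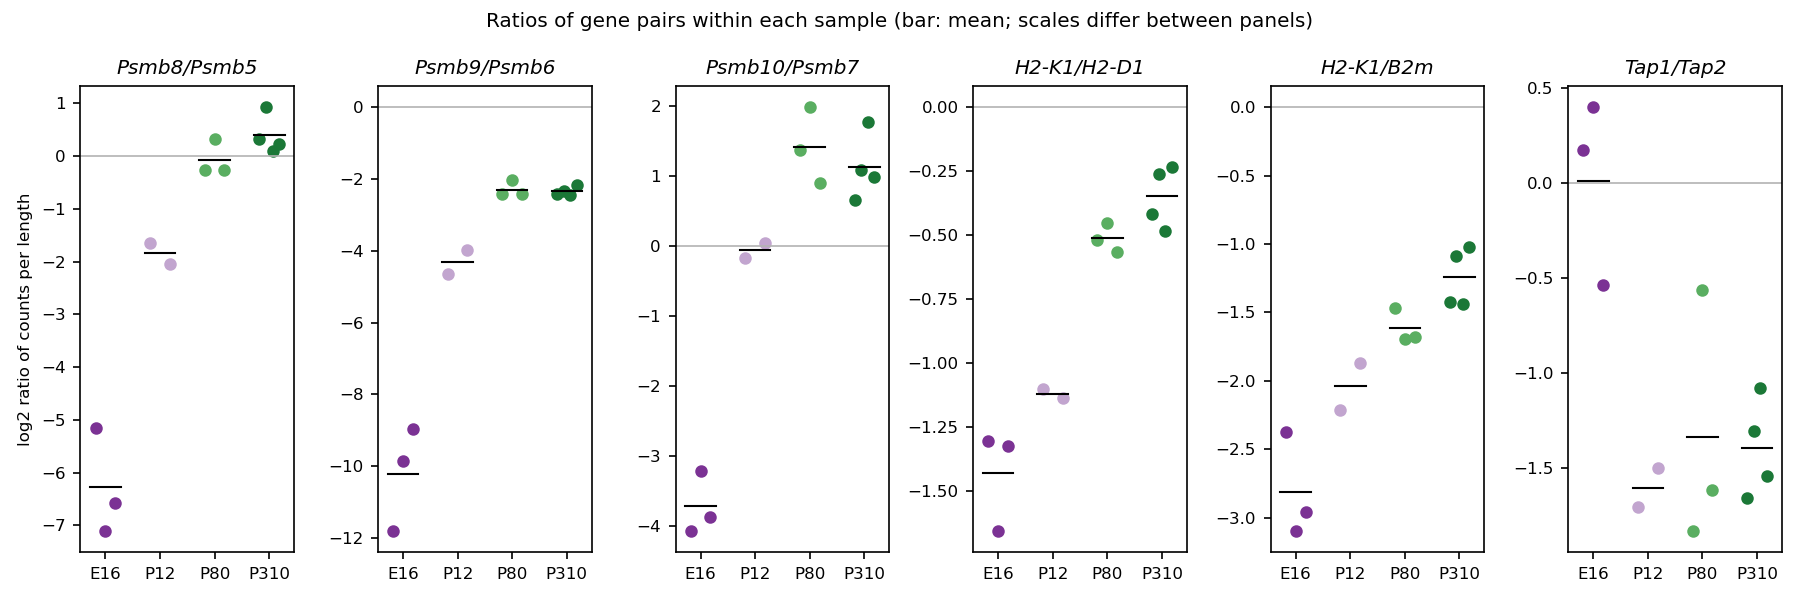
Log2 ratio of counts per exonic length of 6 gene pairs within each sample, by age; each point is a sample, the black bar is the mean, and the grey line at 0 marks equal levels. The 3 ratios of immune to constitutive subunits lie lowest at E16, and Tap1 relative to Tap2 is higher in the E16 samples on average (0.01) than at P12, P80 or P310 (-1.60 to -1.34).

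Nlrc5, the class I transactivator, had 0, 2 and 2 counts in the E16 samples (0, 0.121 and 0.118 CPM), under the level of 3 counts in each. It reached 2.36 and 2.82 CPM at P12, 26.4, 30.5 and 22.8 at P80, and 17.4, 41.4, 35.3 and 52.4 at P310. The increase of 4.83 ± 0.63 at P12 (adjusted p = 4.15e-05) therefore rests on 4 counts at E16 and its size is loose, whereas the increase of 3.35 ± 0.52 at P80 (adjusted p = 0.00415, edgeR) compares 171 counts with 991. That second step, 10.2-fold, was the largest of the 10 genes between P12 and P80. Per length Nlrc5 was the lowest of the 10 at P12 (0.305 ± 0.038 RPKM, against 0.856 ± 0.112 for Psmb9). At E16, P80 and P310 Nlrc5 and Psmb9 lay within their spread of each other (4.31 ± 1.72 and 3.61 ± 0.69 RPKM at P310).

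**Figure D3:**
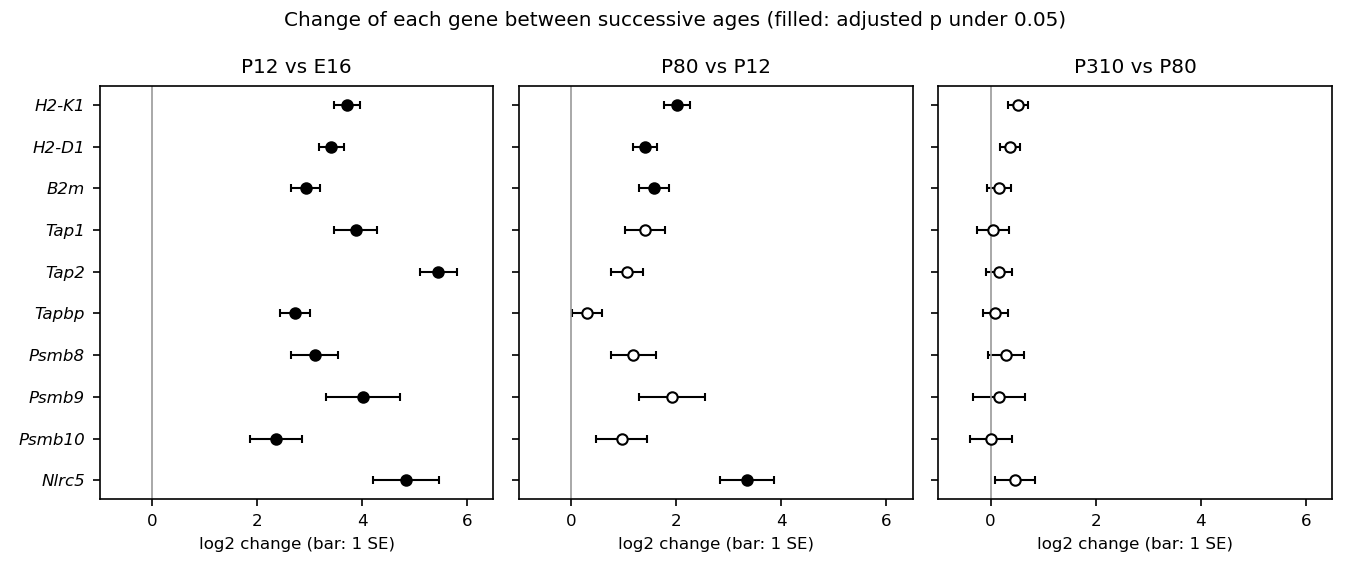
Log2 change of each gene between successive ages from the fit of all 12 samples (x axis; bars are 1 SE), filled where the adjusted p is under 0.05. All 10 points are filled for P12 against E16, 4 for P80 against P12 (H2-K1, H2-D1, B2m and Nlrc5) and none for P310 against P80.

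The median log2 change of the 10 genes between P12 and P80 was 1.40 against -0.0314 for all genes, and for 9 of them the 2 ages did not overlap with P80 the higher, as was true of 11.1% of all genes tested. Which genes pass at this step depends on the 2 P12 samples: without P12 replicate 1 only H2-K1 was called, and without P12 replicate 2-3 H2-K1 and Nlrc5. DESeq2 called 7, adding Tap1, Tap2 and Psmb9, and 6 were called with P12 replicates 2 and 3 kept apart. Without P12 replicate 1 and P310 replicate 2, the libraries highest in myelin genes, 2 were called (H2-K1 and Nlrc5), with a median change of 1.49.

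Between P80 and P310 the 10 log2 values were all above 0 but small, from 0.01 for Psmb10 to 0.52 for H2-K1, with a median of 0.17 against 0.0308 for all genes. edgeR called 0 of the 10, and DESeq2 and limma-voom also 0; 1 (H2-K1) had an unadjusted p under 0.05, as did 5.49% of all genes. In this comparison 0% of all genes were called higher and 0% lower, so the members do not stand apart in the count. From E16 to P310 all 10 rose (median 5.24, from 3.12 for Tapbp to 8.65 for Nlrc5), where 23.1% of genes were called higher and 20.1% lower and the median of all genes lay at 0.163. All 10 differed among the 4 ages, as did 37.1% of all genes.

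Per exonic length the order of levels shifted after birth. At E16 it ran B2m (10.99 ± 3.28 RPKM), Tapbp (4.48 ± 0.45), H2-D1 (4.12 ± 0.52), H2-K1 (1.54 ± 0.35), Psmb10 (1.22 ± 0.47), Psmb8 (0.515 ± 0.261), Tap2 (0.151 ± 0.064), Tap1 (0.149 ± 0.044), Psmb9 and Nlrc5 (SD, n = 3). Tapbp and H2-D1, H2-K1 and Psmb10, Tap2 and Tap1, and Psmb9 and Nlrc5 lay within their spread of each other. At P80 the order was B2m (249 ± 20.5), H2-D1 (116 ± 11.01), H2-K1 (81.5 ± 9.06), Tapbp (36.6 ± 7.84), Tap2 (13.9 ± 1.45), Psmb10 (12.3 ± 4.22), Psmb8 (9.92 ± 0.83), Tap1 (5.77 ± 2.48), Psmb9 (3.23 ± 0.81) and Nlrc5 (3.13 ± 0.45). Both heavy chains were then above Tapbp, which at E16 had been above H2-K1, and the neighbours Tap2, Psmb10 and Psmb8, and Psmb9 and Nlrc5, did not differ beyond their spread.

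Of 19 nonclassical and other class I heavy chains listed, 18 were tested (H2-T3 was not), and 12 rose and 1 fell at P12, with a median of 2.15. Of all genes, 16.7% were called higher and 10.5% lower at that step. Fcgrt, the neonatal Fc receptor, rose by 3.32 ± 0.31, H2-Q4 by 2.49 ± 0.28 and H2-Q6 by 2.44 ± 0.35 (adjusted p 1.24e-06, 1.05e-05 and 9.40e-05, edgeR), while Cd1d1, which presents lipids, changed by -2.64 ± 0.85 (adjusted p = 0.0327). At P80 4 rose, where 0.406% of all genes were called higher and 1.02% lower. They were H2-Q6 (3.07 ± 0.36, adjusted p = 5.81e-04), H2-Q4 (1.64 ± 0.29, adjusted p = 0.0102), H2-T24 (2.30 ± 0.42, adjusted p = 0.0114, edgeR) and H2-T23, the Qa-1 heavy chain. H2-Q6 went from 3.30 and 4.58 CPM at P12 to 27.3 to 43.4 at P80 and 50.6 to 76.9 at P310, 3 ranges that did not overlap. Leaving out either P12 sample left 1 call of the list at P80. H2-Q genes share stretches with H2-K1 and H2-D1, so part of their reads may be common. From P80 to P310 edgeR called none of the 18, 5 had an unadjusted p under 0.05 (5.49% of all genes did), and DESeq2 called 1 and limma-voom 0. Those 5 went both ways: Cd1d1 (-3.45 ± 0.77) and Cd1d2 (-4.92 ± 1.56) were lower at P310, and the others, all H2-Q genes, were higher.

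Of 19 constitutive subunits, activators and assembly genes, 8 fell at P12 and none rose (median -0.89), against the rise of the immune subunits. Of all genes, 10.5% were called lower and 16.7% higher at that step. The 8 that fell included Psmb6, the core subunit Psma2 (-1.15 ± 0.34, adjusted p = 0.0200) and the nuclear activator Psme3 (-0.89 ± 0.27, adjusted p = 0.0226, edgeR). This count fell to 0 without P12 replicate 2-3, to 1 without E16 replicate 3 and to 4 without P12 replicate 1, and was 3 with the replicate number as a term and 14 with P12 replicates 2 and 3 kept apart. From E16 to P310 13 of 19 fell and none rose (median -1.29), where 20.1% of all genes were called lower and 23.1% higher. Psmb5 had a log2 difference of -2.03 ± 0.34 (adjusted p = 2.29e-04, edgeR). The interferon-inducible activator genes Psme1 and Psme2 had differences of 0.60 ± 0.26 and 1.05 ± 0.37 between P12 and P80, short of the threshold (adjusted p 0.449 and 0.289, edgeR). In that step 0 of 19 were called by edgeR, DESeq2 or limma-voom, and 2 had an unadjusted p under 0.05, near the 9.75% of all genes that did.

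Among 14 genes listed for peptide trimming, loading and the endoplasmic reticulum, 5 rose and 1 fell at P12 (median 0.58). Of all genes, 16.7% were called higher and 10.5% lower at that step. Erap1, the aminopeptidase that trims peptides in the endoplasmic reticulum, rose by 3.67 ± 0.42 and the tapasin relative Tapbpl by 2.27 ± 0.35 (adjusted p 1.04e-05 and 1.76e-04). Ggta1, which was on the list but is a galactosyltransferase and not a gene of peptide trimming or loading, rose by 3.595 ± 0.397 (adjusted p = 7.73e-06, edgeR). The cytosolic aminopeptidase Npepps changed by -1.33 ± 0.25 (adjusted p = 9.22e-04, edgeR). At P80 edgeR called none and DESeq2 1, limma-voom none, with 4 of 14 at an unadjusted p under 0.05 (9.75% of all genes). Of those 4 only Tapbpl was higher at P80 (1.06 ± 0.35). The others, among them Sec61a1 (-0.65 ± 0.25) and Canx (-0.52 ± 0.21), were lower. The chaperones Calr, Canx and Pdia3 were not among the calls at P12.

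Of 24 regulators, 12 rose and 3 fell at P12 (median 0.96). At that step 16.7% of all genes were called higher and 10.5% lower, so the falls were near the share of all genes. The NF-kB subunit gene Nfkb1 rose by 2.36 ± 0.26 and the interferon gamma receptor gene Ifngr1 by 2.81 ± 0.33 (adjusted p 7.12e-06 and 1.61e-05, edgeR). Those that fell were Nfyb (-2.13 ± 0.44), Nfyc (-1.11 ± 0.28), both subunits of the factor that binds CCAAT, and Creb1 (-1.01 ± 0.28, adjusted p 0.00226, 0.00852 and 0.0153), which binds the X2 core. At P80, where 0.406% of all genes were called higher and 1.02% lower, Stat2 rose by 1.48 ± 0.29 (adjusted p = 0.0183, edgeR). Irf9 (1.06 ± 0.26, adjusted p = 0.0653, edgeR), whose product acts with that of Stat2 in the response to interferon alpha and beta, was short of the threshold. DESeq2 and limma-voom each called 4 regulators at this step, and 0 were called without P12 replicate 1, without P80 replicate 1 or without both myelin-rich libraries. From E16 to P310 13 rose and 6 fell, where 23.1% of all genes were called higher and 20.1% lower, so the falls were again near that share. Irf1 rose by 4.72 ± 0.41 (adjusted p = 3.74e-07, edgeR). The 6 that fell were Nfyb, Nfyc, Creb1, Nfya (-1.19 ± 0.25), Ifngr2 (-1.74 ± 0.39) and Rfxap (-0.85 ± 0.28, adjusted p for the last 3 0.00131, 0.0022 and 0.0241, edgeR).

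Markers of several other cell types moved with the class I genes at the first step, in which 16.7% of all genes were called higher and 10.5% lower. Summed over the 10 genes, class I levels were 39.6 to 52.0 CPM at E16, 377 and 426 at P12, 926 to 1085 at P80 and 1083 to 1598 at P310. Endothelial markers, all 16 of which rose at P12 (median log2 7.10), gave sums of 56.8 to 87.6, 7319 to 8771, 8805 to 10790 and 7374 to 13800 CPM at those ages, and the tight junction gene Cldn5 measured 2.06 ± 0.64 CPM at E16 and 634 ± 105 at P12. Microglial markers (15 of 18 rose at P12) gave 204 to 243, 1435 to 1513, 542 to 1882 and 520 to 1872 CPM, and astrocyte markers (12 of 15 rose) 518 to 618, 3448 to 4124, 1689 to 2551 and 968 to 2063 CPM. Mural markers (9 of 12 rose) gave 187 to 272 CPM at E16 and 983 to 1280 at P12, and ependymal and choroid plexus markers (8 of 9 rose) 97.7 to 164 and 860 to 5534 CPM. Border macrophage and leukocyte markers (4 of 11 tested rose at P12) gave 64.5 to 72.6 CPM at E16, 99.6 to 106.7 at P12, 95.3 to 159.5 at P80 and 118.5 to 212.2 at P310. From E16 to P310 7 of these were called higher and 1 lower, against 23.1% and 20.1% of all genes. Of 5 fibroblast markers 3 rose at P12, with sums of 465 to 495 CPM at E16 and 1002 to 1702 at P12. Oligodendrocyte markers (7 of 13 rose) gave 65.15 to 84.64 CPM at E16, and at P12 8432 in replicate 1 and 442.8 in replicate 2-3. Immature neuron markers went the other way, 13 of 15 falling, with sums of 7025 to 8219 CPM at E16 and 334 to 370 at P12. OPC markers were divided, 2 of 16 rising and 3 falling, with sums of 818.4 to 993.8 CPM at E16 and 581.2 to 727.2 at P12. Lymphocyte markers were low, 2.52 to 5.55 CPM at E16, 6.72 to 17.8 at P12, 9.38 to 16.9 at P80 and 14.3 to 18.7 at P310, higher in every later sample than at E16, with 1 of 9 tested called higher at P12 and 2 at P310 against E16, and with 3 to 10 of 13 genes at 0; Cd3e was at 0 in all E16 samples and in 3 of 4 P310 samples, and Cd8a in all P80 samples. Mitochondrial genes took 1.52% (E16 replicate 1) to 34.4% (P310 replicate 1) of a library, and the part of any of these in the class I changes was not tested.

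From P12 to P80 edgeR called 0 of 16 endothelial markers higher and 1 lower (median 0.25), but 6 were higher at an unadjusted p under 0.05. Of all genes, 0.406% were called higher and 1.02% lower, and 9.75% had an unadjusted p under 0.05. The endothelial sums were higher in every P80 sample than at P12. The marker called lower was Kdr (-1.57 ± 0.27, adjusted p = 0.00855, edgeR). Flt1, a VEGF receptor gene, differed by 1.14 ± 0.28 (adjusted p = 0.0624) and Ly6a by 1.67 ± 0.39 (adjusted p = 0.0502, edgeR), both short of the threshold. The median of the 18 microglial markers was -0.08, and their sums overlapped between P12 and P80. For the 16 OPC markers the median was -1.34, with 0 called higher and 1 lower. Their sums were 581.2 to 727.2 CPM at P12 and 273.4 to 320.9 at P80. The part of endothelial RNA in the class I values at this step was not tested. Per 1000 CPM of endothelial markers, H2-K1 came to 35.1 to 86.2 CPM at E16, 6.01 and 7.19 at P12, 20.2 to 22.8 at P80 and 22.1 to 44.8 at P310. Nlrc5 per 1000 CPM of endothelial markers was 0.270 and 0.385 at P12 and 2.58 to 2.83 at P80. Tapbp on the same scale was 11.95 and 12.3 at P12 and 8.83 to 14.4 at P80, so the 2 ages overlapped for Tapbp and not for H2-K1 or Nlrc5. Per 1000 CPM of microglial markers H2-K1 was 34.8 and 36.7 at P12 and 99.1 to 429 at P80.

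**Figure D4:**
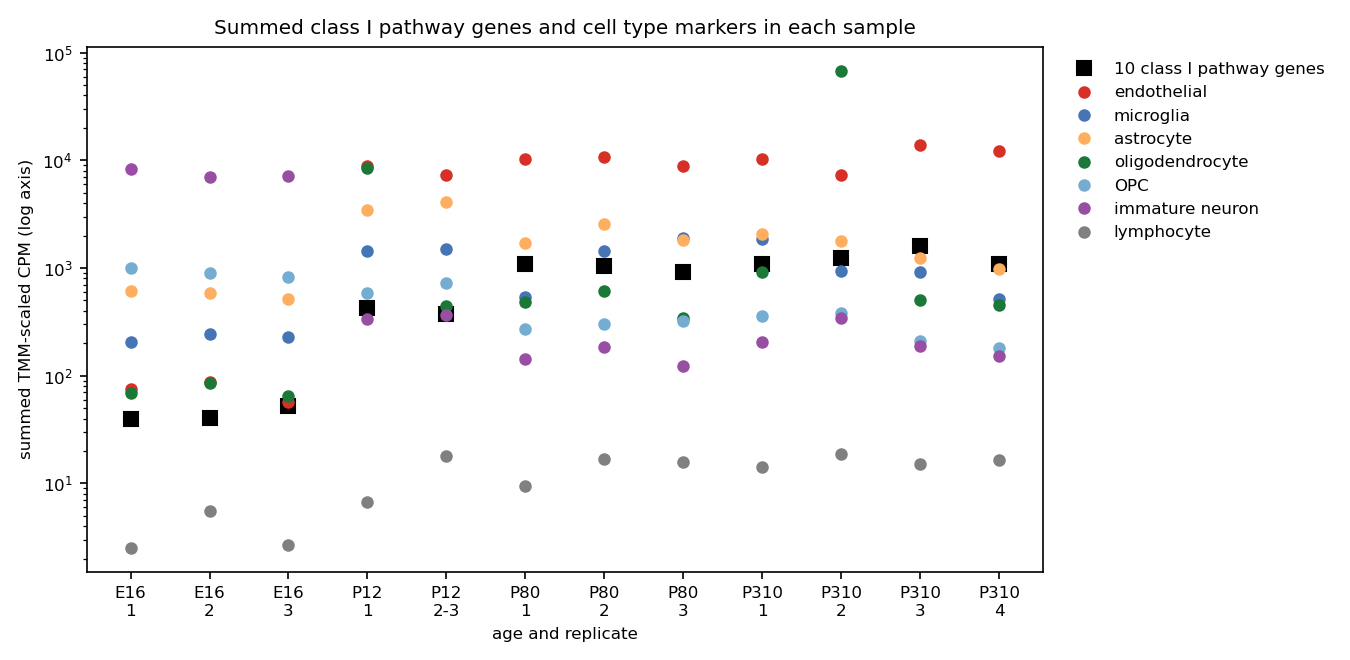
Summed CPM (TMM-scaled, log axis) of the 10 class I pathway genes (squares) and of 7 cell type marker lists (circles) in each of the 12 samples, by age and replicate. Class I and endothelial sums are both lowest in the 3 E16 samples, class I sums are higher at P80 than at P12, and oligodendrocyte markers are highest in P310 replicate 2 (67720 CPM).

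The genes outside the 10 whose pattern was most like theirs were sought by Pearson's correlation of log2 CPM with the mean of the members' standardised values. Over the 12 samples they were Usp18 (r = 0.995), Gm4070, Clec2d, Trim34b, Timp3 and Gvin1 (0.991). Gm4070 and Gvin1 belong to a family of near-identical genes whose counts cannot be told apart. Over the 9 samples after E16 they were Tnfsf10 (r = 0.991), Pkig, Timp3, Utrn, Ndrg1 and Mast4 (0.967). The samples share the large step from E16, and 302 coding genes were at least as alike as the least alike member over 12 samples (Psmb10, 0.967) and 1198 over 9 (Tapbp, 0.563), so this likeness is common to many genes.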

How the data were processed

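Total RNA of 13 libraries was analysed from 1 deposited table of raw counts a library. Per the file headers, the authors ran featureCounts 1.5.0-p1 over the exons of Ensembl release 92 (GRCm38). Its options credit a multi-mapping read, or one on overlapping genes, to every gene it touches by 10 bases or more, without regard to strand. Trim Galore and TopHat2 2.1.1 are named in the submitters' processing notes. Identifiers were named from GENCODE M21 (37715 of 37785).

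Titles gave the age groups. The series text gives 3 to 4 mice a time point but does not tie a library to 1 mouse, so p-values measure the spread between these samples. Genes were kept with filterByExpr by age, scaled by TMM and fitted with a mean per age in edgeR 4.0.16 (robust quasi-likelihood, R 4.3.3). The fit was also run on simulated counts with the same spread for all genes, where only genes of higher level were changed. That run does not cover genes as low at E16 as Nlrc5 and Psmb9, and no result here rests on it. The common biological coefficient of variation was 0.513. Alternatives used limma 3.58.1 and DESeq2 1.42.0. RPKM used the exonic length in the tables. Pair ratios added 0.5 counts and used exact two-sided permutation tests (scipy 1.17.1), adjusted over 9 ratios. Motifs were searched in RefSeq windows of GRCm38.p6, and the interferon core was chosen after the promoters were seen.

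All 10 members were named, and of each pathway list up to 3 genes with the smallest adjusted p per comparison and those called against the majority, with the partners of the ratios, Pdgfra and defining markers. H2-T23, Flt1, Ly6a and Kdr were named after their values were seen. One gene that this rule would name is not reported here. The members and lists were chosen with earlier results of these data known. Figures were drawn with matplotlib 3.10.9.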

Additional observations from a re-analysis of the deposited data

How the results depend on the processing

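The counts of members called at P12 against E16 (10), P310 against E16 (10), P310 against P80 (0) and over all ages (10) were the same under every alternative run: RLE and upper quartile scaling, other count filters, DESeq2, limma-voom, a fit of the compared ages alone, without mitochondrial, ribosomal and haemoglobin genes, P12 replicates 2 and 3 kept apart or replicate 2 alone, and each sample left out. At P80 against P12 the count of 4 became 7 with DESeq2, 6 with P12 replicates 2 and 3 kept apart and 5 with limma-voom, and ranged from 1 to 4 with 1 sample left out; without P12 replicate 1 and P310 replicate 2, an alternative chosen after seeing the data, it was 2. Leaving out 1 sample kept 7 or 8 of the 9 ratios past the threshold, against 8. For P310 against P80 the value of Psmb10 reversed to -0.012 with DESeq2 and RLE, -0.01 with upper quartile scaling, -0.006 without mitochondrial, ribosomal and haemoglobin genes and -0.059 without the 2 myelin-rich libraries. With 1 sample left out the P310 against P80 values ran from -0.276 to 0.32 for Psmb10, -0.015 to 0.28 for B2m, 0.0 to 0.38 for Psmb9, -0.157 to 0.446 for Tap1 and -0.132 to 0.258 for Tapbp. The ratios ran from -0.104 to 0.091 for Psmb9/Psmb6, -0.141 to 0.218 for Psmb9/Tap1, -0.305 to 0.329 for Tap1/Tap2 and -0.526 to 0.282 for Tapbp/Tap1. Psmb9/Tap1 after E16 was -0.196 with 5 counts added and -0.001 to 2.053 with 1 sample left out. The cause of these shifts was not tested. With the replicate number as a block the counts were 10, 4, 0 and 10 in the order P12 against E16, P80 against P12, P310 against P80 and P310 against E16. The numbers did not pair the samples: over 15 same-numbered pairs the correlation of deviations ran from -0.094 to 0.208, with 3 above 0.1. Where P12 was left with 1 sample, that sample was assumed to vary like the other ages. Depth limits Nlrc5 and Psmb9 at E16 most, where 4 and 9 counts carry the fold.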
